A study of Rattus norvegicus with 10 samples.

Results

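Blnk encodes the B cell linker protein, an adaptor best known from B lymphocytes and also used by myeloid cells. It was examined here together with 9 genes of the microglial pathway in which such an adaptor acts: the receptor Trem2, the ITAM adaptors Tyrobp and Fcer1g, the kinases Syk and Btk, the effectors Plcg2 and Vav1, and the phosphatases Inpp5d and Ptpn6. The 10 genes were selected on earlier results of these samples, because Blnk had the second smallest p of 22431 tested rows between injured and sham rats. The values of that comparison are therefore a description and not a test of the list. Each symbol had 1 row among the 32041 RNA records of the deposited table, matched by its RefSeq accession, and all 10 rows passed the filter on low counts.

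Messenger RNA was counted in the left hippocampus of 10 adult male Sprague-Dawley rats, in tissue labelled dorsal hippocampus and described in the methods as CA3 with dentate gyrus. In the TBI group (n = 5) a lateral fluid percussion pulse with a mean of 3.32 atm reached the dura through a craniectomy. The sham group (n = 5) had the same anaesthesia and surgery without the pulse, and both groups were killed 3 months later. The labels give no age, and the injured rats were not monitored by EEG, so spontaneous seizures were not recorded, and no seizures were seen on handling.

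An immunoreceptor tyrosine-based activation motif (ITAM) is a short stretch with a pair of tyrosines in the tail of an adaptor such as Tyrobp or Fcer1g. When a receptor binds its ligand, Src family kinases phosphorylate the motif, Syk docks on it and phosphorylates adaptors, and these bring Btk, phospholipase C gamma and Vav to the membrane. Phosphatases such as the products of Inpp5d and Ptpn6 counter the signal. In the brain the Trem2 and Tyrobp pair is found mainly on microglia, where it is known for its part in phagocytosis, survival and the response to injury.

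Depth and tissue were checked first. Libraries held 23425817 to 31671838 counts on RNA records. Ribosomal RNA rows took 59.0% of these counts in sham replicate 4 and 58.3% in sham replicate 5, against 12.5% to 26.2% in the other 8 rats, so that 12748961 to 24737362 counts per rat lay outside ribosomal RNA. The markers of the dissected region were present, with a mean of 97.6 CPM (counts per 1000000, on library sizes scaled by TMM) of C1ql2, a gene of dentate granule cells, and 127 CPM of Grik4, a kainate receptor gene strong in CA3, in sham rats. Single rats differed widely in C1ql2, from 33.4 to 124 CPM in sham and from 47.7 to 130 CPM in TBI. Grik4 ran from 109 to 152 CPM in sham and from 105 to 145 CPM in TBI. The part of such differences in the results below was not tested. The 17 microglia markers were all detected, and among them Ctss with 110 CPM and Csf1r with 83.8 CPM in sham rats. Of the astrocyte genes of the tissue list, Gfap, the glial filament gene, averaged 1016 CPM ± 346 (SD, n = 5) for sham against 1801 CPM ± 523 (SD, n = 5) for TBI, and 4 of 5 injured rats lay above every sham rat. Its log2 change was 0.82 ± 0.268 (SE), larger than that of any of the 10 genes, and the water channel gene Aqp4 had 0.53 ± 0.242 (SE). The part of these astrocyte genes in the results below was not tested.

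The promoters of Blnk, Vav1 and Inpp5d are shown, of which those of Vav1 and Inpp5d hold GAGGAAGT and that of Blnk holds GGAAGT. Letters of this kind are bound by PU.1, the myeloid factor encoded by Spi1, and the promoters were chosen with these matches known. They are RefSeq sequences of assembly GRCr8, not of the build used for the counts, run 5′ to 3′ on the strand of the gene, and cover 250 bases before to 50 bases after the annotated start. Capitals mark GAGGAA and GGAAGT, searched on both strands, which overlap in GAGGAAGT.
Blnk (chr1:249770484-249770783, minus strand): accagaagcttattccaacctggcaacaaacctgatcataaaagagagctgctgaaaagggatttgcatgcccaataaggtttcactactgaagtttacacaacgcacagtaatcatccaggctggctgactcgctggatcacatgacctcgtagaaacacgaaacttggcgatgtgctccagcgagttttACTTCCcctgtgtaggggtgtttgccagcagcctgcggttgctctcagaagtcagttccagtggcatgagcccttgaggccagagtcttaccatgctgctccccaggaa
Vav1 (chr9:2248705-2249004, plus strand): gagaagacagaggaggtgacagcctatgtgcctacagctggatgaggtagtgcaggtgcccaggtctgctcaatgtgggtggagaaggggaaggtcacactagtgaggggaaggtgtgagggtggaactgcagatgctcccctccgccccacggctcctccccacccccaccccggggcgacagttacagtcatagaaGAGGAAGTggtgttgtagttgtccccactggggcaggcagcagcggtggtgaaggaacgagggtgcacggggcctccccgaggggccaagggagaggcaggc
Inpp5d (chr9:95735283-95735582, plus strand): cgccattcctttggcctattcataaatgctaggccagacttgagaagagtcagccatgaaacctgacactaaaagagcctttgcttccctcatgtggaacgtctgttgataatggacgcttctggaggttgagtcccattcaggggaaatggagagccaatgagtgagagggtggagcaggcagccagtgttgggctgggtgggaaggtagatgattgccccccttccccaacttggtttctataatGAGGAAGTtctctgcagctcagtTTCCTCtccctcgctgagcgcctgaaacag

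Promoters were found for 8 of the 10 genes, and those of Tyrobp and Fcer1g are named only. The full GAGGAAGT was in 2 of the 8, starting 52 bases before the start of Vav1 and 3 bases before that of Inpp5d, and in 2.42% of all 33469 promoters. GAGGAA was in 6 of the 8 (Trem2, Syk, Plcg2, Btk, Vav1 and Inpp5d), against 27.6% of all promoters. GGAAGT was in 5 of the 8 (Blnk, Syk, Vav1, Inpp5d and Ptpn6), against 22.6%. The match in Blnk began 59 bases before the start and lay on the opposite strand. These matches describe letters in a window and are not evidence of binding. Spi1 itself had 4.14 CPM ± 1.01 (SD, n = 5) for sham against 5.60 CPM ± 0.922 (SD, n = 5) for TBI, and the log2 change was 0.43 ± 0.157 (SE). Whether Spi1 has a part in the levels of the 10 genes was not tested.

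Across the whole table no row passed an adjusted p of 0.05 (0% of 22431) by the quasi-likelihood method of edgeR, where the 10 genes had adjusted p-values from 0.477 for Blnk to 0.902 for Plcg2. Without adjustment 1769 rows were under 0.05, and with adjustment DESeq2 called 3 rows and limma voom 0. All 10 genes had a log2 change above 0, as did 47.8% of all rows, and their median was 0.38 against -0.01 over all rows. An unadjusted p under 0.05 with a higher level in TBI was found for 6 of the 10 (Blnk, Tyrobp, Fcer1g, Vav1, Ptpn6 and Trem2), and for 4.89% of all rows. Lower in TBI at that threshold were 0 of the 10 and 3% of all rows. Because the list was chosen on this contrast, nothing about the list is read from these counts. The study's own edgeR analysis, for which its methods give fewer sham rats, listed Blnk and Tyrobp among the genes higher in TBI. That list was cut on the unadjusted p. The study's adjusted p was under 0.05 for both genes, unlike the adjusted p-values here, and why the results differ was not tested.

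**Figure D1:**
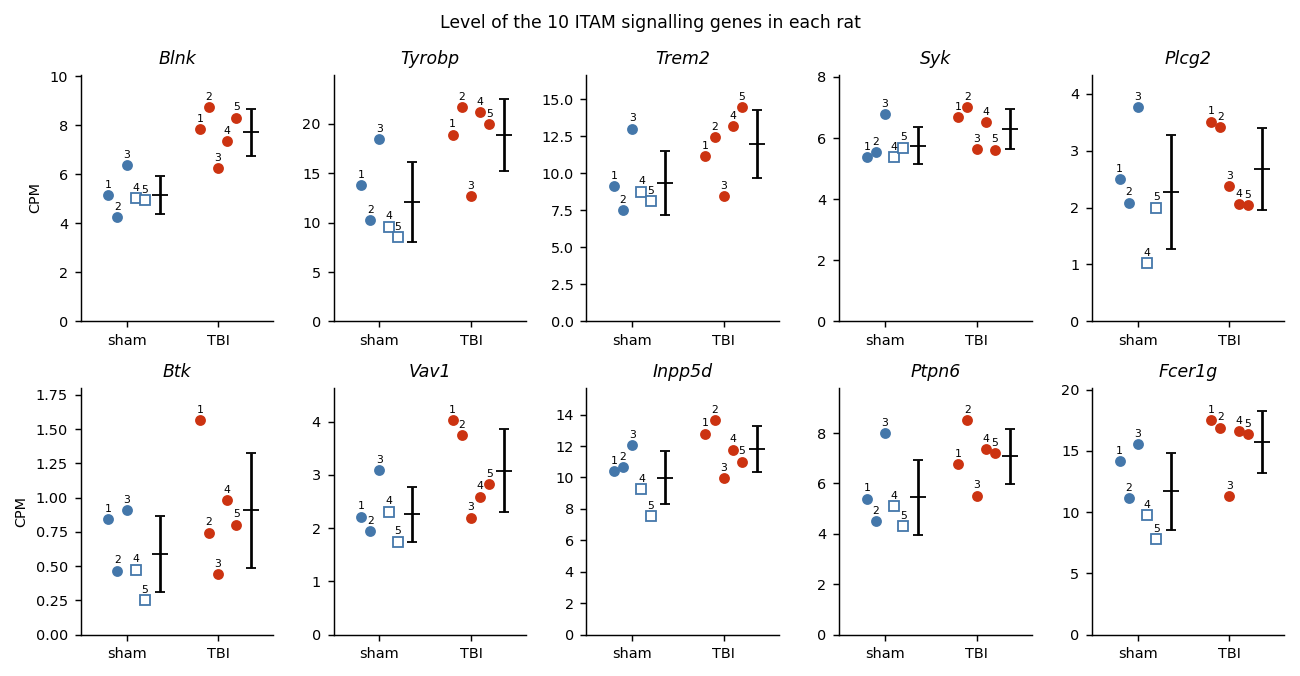
CPM of each gene in each rat, with the replicate number above each point. Black bars are the mean and SD of 5 rats, and open squares are sham replicates 4 and 5, which had 59.0% and 58.3% of counts on ribosomal RNA. Sham replicate 3 is the highest sham rat in all 10 panels, and TBI replicate 3 is the lowest injured rat in 8.

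Blnk, which links Syk to Btk and phospholipase C gamma, is described first. Its level was 5.15, 4.24, 6.37, 5.03 and 4.94 CPM in sham replicates 1 to 5. In TBI replicates 1 to 5 it was 7.86, 8.75, 6.25, 7.37 and 8.31 CPM. Of the injured rats 4 lay above every sham rat, and the groups overlapped only through TBI replicate 3 and sham replicate 3. The ratio of the means was 1.50, and the log2 change was 0.58 ± 0.123 (SE). These levels rested on 74 to 329 reads per library.

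The ITAM adaptors came next. Tyrobp, the partner of Trem2, had 13.8, 10.2, 18.4, 9.59 and 8.56 CPM in sham rats and 18.9, 21.7, 12.6, 21.2 and 19.9 CPM in TBI rats. Its log2 change was 0.62 ± 0.212 (SE), the largest estimate of the 10 genes but with a wider error than that of Blnk. Again 4 injured rats exceeded every sham rat and TBI replicate 3 did not. Fcer1g, the common gamma chain of Fc receptors, had 14.1, 11.1, 15.6, 9.79 and 7.81 CPM in sham rats and 17.5, 16.9, 11.3, 16.6 and 16.4 CPM in TBI rats. Its log2 change was 0.41 ± 0.167 (SE), and the 4 injured rats other than replicate 3 lay above every sham rat.

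Trem2, the lipid-sensing receptor that signals through Tyrobp, had 9.15, 7.55, 13.0, 8.77 and 8.12 CPM in sham rats and 11.2, 12.4, 8.45, 13.2 and 14.5 CPM in TBI rats. Only TBI replicates 4 and 5 exceeded sham replicate 3. Its log2 change was 0.35 ± 0.156 (SE), so the receptor had a smaller estimate than its adaptor, a difference that was not tested.

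The kinases had few reads or small differences. Syk, which docks on the phosphorylated motif, had 5.37, 5.53, 6.79, 5.37 and 5.69 CPM in sham rats and 6.70, 7.03, 5.63, 6.52 and 5.62 CPM in TBI rats. The log2 change of Syk was 0.13 ± 0.110 (SE), the smallest estimate of the 10. Btk, a Tec family kinase, had 0.843, 0.467, 0.910, 0.476 and 0.250 CPM in sham rats and 1.57, 0.745, 0.440, 0.980 and 0.803 CPM in TBI rats. Only 4 to 54 reads per library lay behind these values, and its log2 change of 0.52 had a standard error of 0.338. The log2 change of Btk was 0.23 without TBI replicate 1, 0.28 without sham replicates 4 and 5, and 0.69 without TBI replicate 3.

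Among the effectors, Vav1, an exchange factor for Rac, had 2.22, 1.94, 3.09, 2.31 and 1.75 CPM in sham rats and 4.03, 3.75, 2.20, 2.59 and 2.82 CPM in TBI rats. Its log2 change was 0.43 ± 0.188 (SE), and TBI replicates 1 and 2 alone exceeded every sham rat. Plcg2, the phospholipase that releases calcium and diacylglycerol signals, had 2.50, 2.08, 3.77, 1.02 and 1.9995 CPM in sham rats. In TBI rats it had 3.51, 3.41, 2.38, 2.06 and 2.05 CPM, none of them above sham replicate 3. For Plcg2 the log2 change was 0.18 ± 0.256 (SE), and it was -0.05 without sham replicates 4 and 5, 0.025 without sham replicate 4 alone and 0.44 without sham replicate 3.

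Of the phosphatases, Inpp5d, which removes a phosphate from the lipid made by PI3 kinase, had 10.4, 10.7, 12.1, 9.25 and 7.56 CPM in sham rats. In TBI rats it had 12.8, 13.7, 9.95, 11.8 and 11.0 CPM. The log2 change of Inpp5d was 0.23 ± 0.119 (SE). Ptpn6, the tyrosine phosphatase recruited by inhibitory receptors, had 5.40, 4.49, 7.99, 5.10 and 4.31 CPM in sham rats and 6.76, 8.52, 5.52, 7.37 and 7.20 CPM in TBI rats. On the log2 scale its change was 0.36 ± 0.157 (SE), and TBI replicate 2 alone lay above sham replicate 3, without which the change was 0.55.

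**Figure D2:**
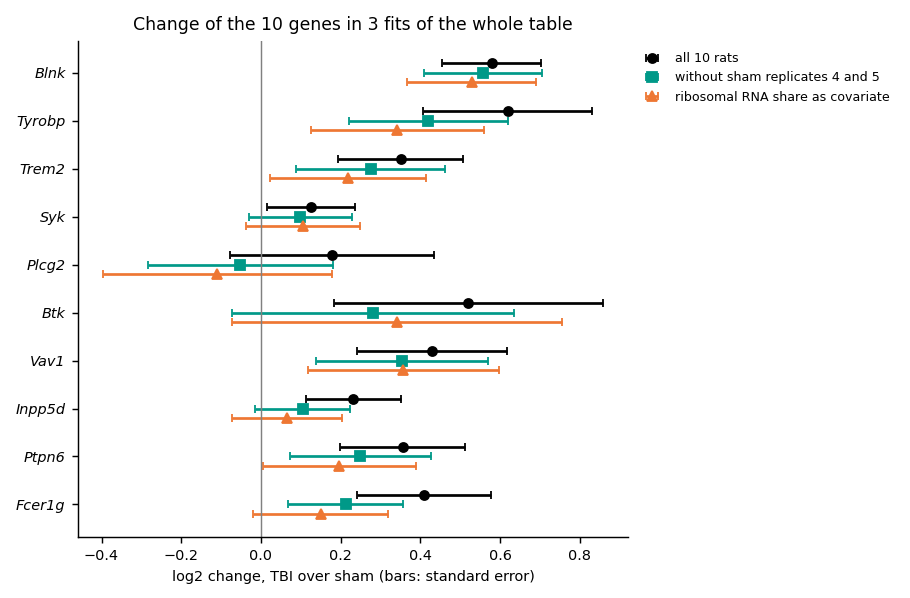
Log2 change of TBI over sham for each gene, with its standard error, with all 10 rats, without sham replicates 4 and 5, and with the ribosomal RNA share as a covariate. Blnk, chosen for its small p in this contrast, stays at 0.58, 0.56 and 0.53. Tyrobp goes from 0.62 to 0.42 and 0.34, and Plcg2 changes sign.

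Estimates were also made without the sham rats rich in ribosomal RNA and with its share in the model. Without sham replicates 4 and 5 the log2 change of Blnk was 0.56 ± 0.148 (SE), and with the ribosomal RNA share as a covariate it was 0.53 ± 0.162 (SE). Fcer1g, by contrast, had 0.21 and 0.15 in these fits, and Tyrobp had 0.42 and 0.34. The number of the 10 genes higher in TBI at an unadjusted p under 0.05 was 1 in each of these fits instead of 6, and in both that gene was Blnk. Leaving out single rats also moved it. It was 2 without sham replicate 2, 4 or 5 or TBI replicate 2, 3 without sham replicate 1 or TBI replicate 1, 4 or 5, 7 without sham replicate 3 and 8 without TBI replicate 3. The number of all rows at an unadjusted p under 0.05 in either direction moved too. With all rats it was 1769 of 22431. It was 1256 without sham replicates 4 and 5 and 991 with the covariate. Leaving out single rats gave 1162 (without sham replicate 2) to 2566 (without sham replicate 3). Without sham replicate 1 it was higher, at 1876, although fewer members passed. Blnk kept an unadjusted p under 0.05 in 20 of 20 alternatives, Tyrobp in 18, and Fcer1g, Vav1 and Ptpn6 in 11 each. Trem2 did so in 10, Inpp5d in 5, Btk in 2, and Syk and Plcg2 in 0. Blnk was chosen for its small p in these same rats, so its count here is not independent support. No adjusted p fell under 0.05 for the other 9 genes in any alternative, and for Blnk it did only with scaling by total counts outside ribosomal RNA (adjusted p = 0.0479 in edgeR), where the median of all rows also moved to 0.14.

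The genes varied together between rats of the same group. After each group's mean was removed from log2 CPM, the Pearson correlation over the 10 rats was above 0 for all 45 pairs of genes, with a median of 0.73, from 0.31 for Trem2 with Plcg2 to 0.94 for Tyrobp with Fcer1g. The points share libraries and scaling, so this is a description. Sham replicate 3 was the highest sham rat for 10 of the 10 genes, and TBI replicate 3 was the lowest injured rat for 8. Neither these counts nor the correlations were set beside all rows. They are therefore not read as particular to the 10 genes. Averaged over the 10 genes, log2 CPM relative to the gene means was 0.30 in sham replicate 3 and -0.18 in TBI replicate 3, each on the side of the other group. It was -0.53 to -0.07 in the remaining sham rats and 0.20 to 0.41 in the remaining injured rats.

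**Figure D3:**
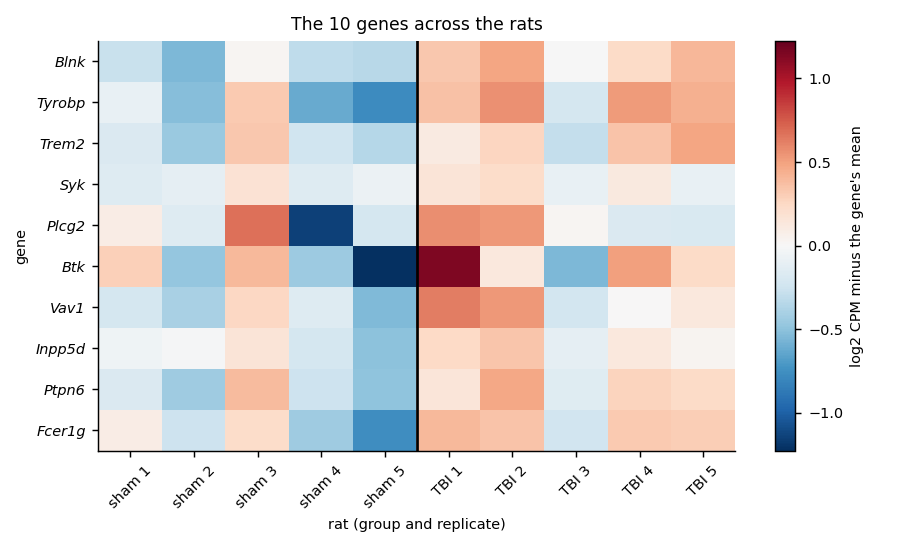
Log2 CPM of each gene in each rat minus the mean of that gene over all 10 rats, from blue (below) to red (above). Sham replicate 3 is red for 9 genes and near 0 for Blnk, TBI replicate 3 is mostly blue, and sham replicates 4 and 5 are blue throughout.

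Among 10712 symbols with at least 1 CPM, the symbols whose group-centred log2 CPM was most like that of Blnk over the 10 rats were Cyba (r = 0.96), Fcrl2 (0.96), Lgi4 (0.96), Cspg5 (0.95) and Slc44a2 (0.95). Of the other members, Ptpn6 (r = 0.89), Trem2 (0.88) and Tyrobp (0.81) stood 36th, 41st and 124th in that order, and Plcg2 (0.47) stood 1310th. Cyba had a log2 change of 0.42 ± 0.151 (SE) between the groups, Fcrl2 had 1.56 ± 0.545 (SE) and Lgi4 had 0.45 ± 0.111 (SE). Cspg5 had 0.09 ± 0.0719 (SE) and Slc44a2 had 0.14 ± 0.0756 (SE). These are the highest of 10712 correlations over 10 rats that share libraries and scaling, and no test was made of them.

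In tissue RNA, a change in the number of cells of a type and a change in RNA per cell cannot be told apart. Each gene was also set against the summed CPM of the 17 microglia markers. This sum was 363 to 533 CPM in sham rats and 423 to 570 CPM in TBI rats, with a log2 ratio of the means of 0.25. At an unadjusted p under 0.05, 7 of the 17 markers were higher and none was lower, against 4.89% and 3% of all rows. A log2 change above 0 was found for 15 of 17, against 47.8% of all rows. P2ry12 and Tmem119, which mark resting microglia, had 0.18 and 0.22 with standard errors of 0.163 and 0.266.

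Blnk was 1.10%, 1.07%, 1.19%, 1.20% and 1.36% of the marker sum in sham replicates 1 to 5. In TBI replicates 1 to 5 it was 1.45%, 1.54%, 1.48%, 1.44% and 1.55%. On this scale all 5 injured rats lay above every sham rat, TBI replicate 3 included, as was the case for 24 of 22431 rows (0.107%), whereas on the CPM scale the groups did not overlap with TBI higher for 0 of the 10 genes and 0.499% of rows. With the mean log2 CPM of the 17 markers subtracted instead of dividing by their sum, the separation also held in 5 of 5 injured rats, with a difference of 0.33 in log2. Tyrobp was 2.30% to 3.46% of the sum in sham rats and 2.99% to 4.14% in TBI rats, and 4 of 5 injured rats exceeded every sham rat. Syk went the other way in its means, 1.33% ± 0.157 (SD, n = 5) for sham against 1.22% ± 0.108 (SD, n = 5) for TBI. Inpp5d had nearly equal means of 2.29% ± 0.232 (SD, n = 5) and 2.29% ± 0.141 (SD, n = 5). Trem2 was 2.13% ± 0.220 (SD, n = 5) for sham against 2.30% ± 0.315 (SD, n = 5) for TBI, a difference smaller than the spread in the injured rats. These ratios come from the same contrast that chose Blnk and are not independent support.

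**Figure D4:**
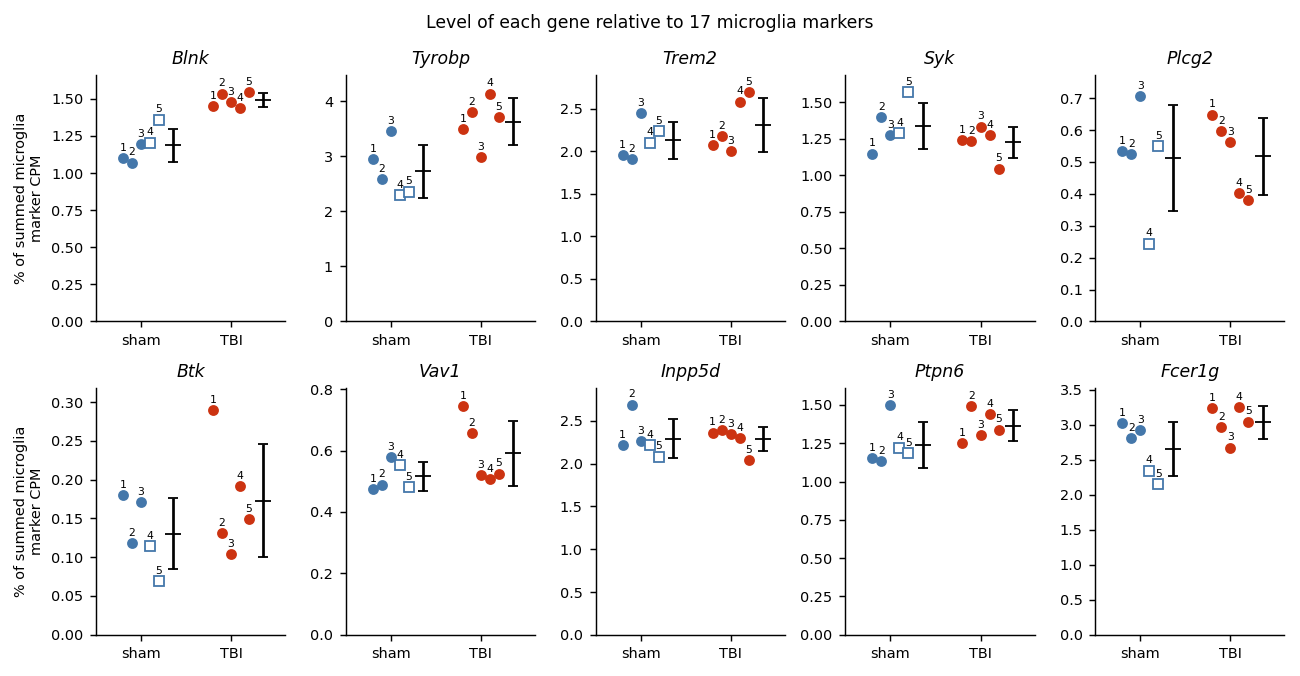
Level of each gene as a percentage of the summed CPM of 17 microglia markers in each rat, with black bars for the mean and SD of 5 rats and open squares for sham replicates 4 and 5. The injured rats lie at 1.44% to 1.55% for Blnk, above the sham rats at 1.07% to 1.36%, while the groups overlap for the other 9 genes.

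Blnk and Btk are also B cell genes, so markers of other blood cells were read in the same libraries. The 7 B cell markers with a row summed to 2.86 to 7.73 CPM in sham rats and 5.31 to 8.73 CPM in TBI rats. Cd79b, Pax5 and Cr2 had 0 to 4 reads in any library, Ebf1 had 7 to 43 and Fcrla had 27 to 109. The log2 change was 0.30 ± 0.266 (SE) for Ebf1 and -0.05 ± 0.188 (SE) for Fcrla. Cd22, a sialic acid receptor that microglia can also carry, had 1.56 CPM ± 1.83 (SD, n = 5) for sham against 3.58 CPM ± 1.55 (SD, n = 5) for TBI. The T and NK cell markers summed to 7.07 to 9.56 CPM in sham rats and 8.74 to 14.3 CPM in TBI rats. Of their defining genes, Cd3d, Cd3g and Cd8a had at most 5 reads in any library, whereas Cd3e, another chain of the T cell receptor complex, had 1 to 94 reads. Cd3e averaged 0.249 CPM ± 0.263 (SD, n = 5) for sham against 0.915 CPM ± 0.974 (SD, n = 5) for TBI, with a log2 change of 2.06 ± 0.993 (SE). Cd247, the zeta chain of that complex, was lower in TBI, at 1.59 CPM ± 0.753 (SD, n = 5) for sham against 0.831 CPM ± 0.251 (SD, n = 5) for TBI (log2 change -0.93 ± 0.290, SE). Cd4 had 5.31 CPM ± 1.08 (SD, n = 5) for sham against 8.85 CPM ± 2.21 (SD, n = 5) for TBI, and the log2 change was 0.71 ± 0.176 (SE). In the rat, Cd4 is also made by macrophages and microglia.

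Monocyte and border macrophage markers summed to 2.69 to 4.83 CPM in sham rats and 3.86 to 5.28 CPM in TBI rats. Ccr2, the chemokine receptor of blood monocytes, had at most 6 reads, and Ly6c had 0 in every library. Pf4, a chemokine of platelets and border macrophages, had 0.157 CPM ± 0.0504 (SD, n = 5) for sham against 0.426 CPM ± 0.134 (SD, n = 5) for TBI, from 2 to 23 reads per library. Its log2 change was 1.42 ± 0.359 (SE), and all 5 injured rats lay above every sham rat, as for 0.499% of all rows. Neutrophil markers summed to 1.94 to 4.39 CPM in sham rats and 3.29 to 5.14 CPM in TBI rats, nearly all of it Csf3r. S100a8 and S100a9 had at most 3 reads. The mast cell list summed to 48.7 to 78.0 CPM in sham rats and 46.4 to 61.5 CPM in TBI rats, nearly all of it Kit. Cpa3, Ms4a2 and Mcpt1 were at 0, whereas Hdc had 5 to 35 reads and the tryptase gene Tpsab1 had 2 to 21. Tpsab1 averaged 0.180 CPM ± 0.0981 (SD, n = 5) for sham against 0.389 CPM ± 0.174 (SD, n = 5) for TBI, a log2 change of 1.147 ± 0.424 (SE), and was the only gene of its list with an unadjusted p under 0.05. The part of these cells in the differences of the 10 genes was not tested.

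The wider pathway was read from 4 lists of 65 genes, of which 59 had a row and 53 passed the filter. In this set 9 genes had an unadjusted p under 0.05, 8 higher and 1 lower in TBI. Of all rows 4.89% were higher and 3% lower at that threshold, and 7.89% in either direction. None passed the adjusted threshold. Without sham replicates 4 and 5 the count was 2, with the ribosomal RNA share as covariate it was 1, and it ran from 4 (without sham replicate 2 or TBI replicate 2) to 14 (without sham replicate 3) when single rats were left out. The count over all rows moved as well, from 1769 with all rats to 1256 without sham replicates 4 and 5 and 991 with the covariate. It was 1162 without sham replicate 2, 1353 without TBI replicate 2 and 2566 without sham replicate 3.

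Of the 9 tested receptors that signal through ITAM adaptors or stand beside them, 7 had a log2 change above 0, with a median of 0.27. Itgb2, the integrin chain of complement receptor 3, was the only one at an unadjusted p under 0.05, with 12.9 CPM ± 3.09 (SD, n = 5) for sham against 17.3 CPM ± 2.32 (SD, n = 5) for TBI, and the log2 change was 0.41 ± 0.141 (SE). Its partner Itgam had a log2 change of -0.01 ± 0.167 (SE). Csf1r, the receptor for colony stimulating factor, had 0.27 ± 0.131 (SE). Clec7a, a receptor for fungal glucans that rises in reactive microglia, had the largest estimate at 1.71, but from 0 to 53 reads per library, and its standard error was 0.989.

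The 9 Src and Tec family kinases and their regulators had a median of 0.10. Lyn, a Src family kinase of blood cells and microglia, had a log2 change of 0.10 ± 0.144 (SE). Fyn and Src, which neurons also express, had -0.03 and 0.09 with standard errors of 0.0697 and 0.0845.

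The 23 tested adaptors and effectors had a median of 0.12. Prkcd, a protein kinase C of the diacylglycerol branch, and Sh3bp2, an adaptor that binds Syk and Vav, were at an unadjusted p under 0.05 with log2 changes of 0.36 and 0.28 and standard errors of 0.155 and 0.119. Lcp2, the relative of Blnk used by T cells and other blood cells, had 5.83 CPM ± 0.618 (SD, n = 5) for sham against 6.22 CPM ± 0.613 (SD, n = 5) for TBI, and the log2 change was 0.10 ± 0.110 (SE). Plcg1, the broadly expressed relative of Plcg2, had -0.08 ± 0.0731 (SE). Grb2 and Rac1, named for their high CPM, had -0.02 ± 0.0660 (SE) and -0.02 ± 0.0739 (SE).

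The 12 tested inhibitory receptors and phosphatases had a median of 0.29. At an unadjusted p under 0.05, 4 were higher and 1 lower in TBI, against 4.89% and 3% of all rows. Inppl1, the broadly expressed relative of Inpp5d, had the smallest p, with 18.7 CPM ± 1.55 (SD, n = 5) for sham against 22.7 CPM ± 2.18 (SD, n = 5) for TBI, and the log2 change was 0.28 ± 0.0880 (SE). Dok1 and Dok3, adaptors that dampen such signals, had 0.49 and 0.68 with standard errors of 0.200 and 0.274, and Fcgr2b, the inhibitory Fc receptor, had 0.48 ± 0.212 (SE). Ptprj, a receptor phosphatase, was lower, with 86.8 CPM ± 2.69 (SD, n = 5) for sham against 77.2 CPM ± 6.50 (SD, n = 5) for TBI, and the log2 change was -0.17 ± 0.0748 (SE). Sirpa and Ptpn11, named on the same ground, had 0.00 and 0.14 with standard errors of 0.0841 and 0.0793.

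**Figure D5:**
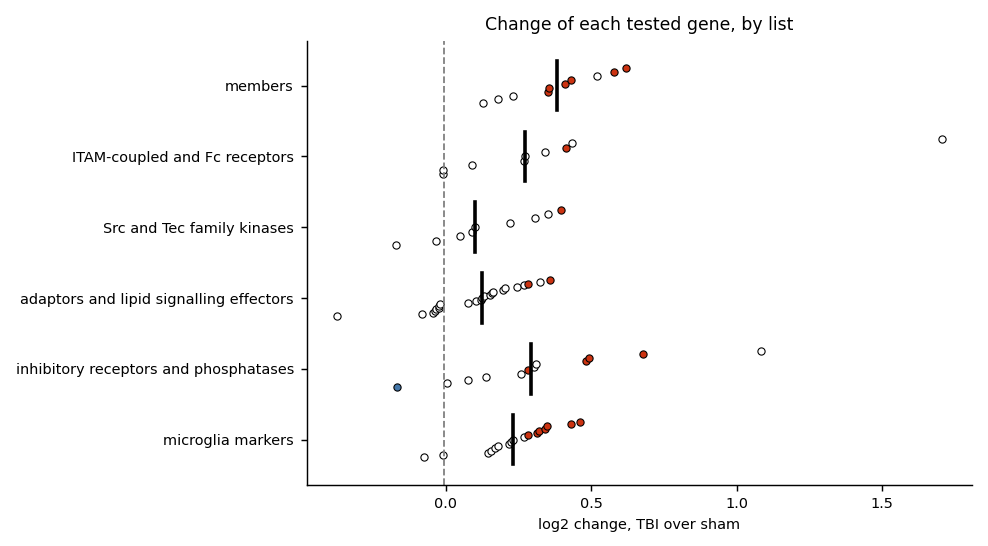
Log2 change of TBI over sham for each tested gene of the 10 members, of the 4 pathway lists and of the microglia markers. Thick lines are list medians (0.38, 0.27, 0.10, 0.12, 0.29 and 0.23 from top to bottom), the dashed line is the median of all rows at -0.01, and filled points had an unadjusted p under 0.05 (red higher, blue lower in TBI).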

How the data were processed

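The authors deposited a table of raw counts for each rat, with RefSeq RNA records as rows, with no pooling and no normalization. According to the study's methods, poly-A RNA was read as single reads (36 cycles per the labels), aligned to rn4 with BWA and counted over Ensembl transcripts; how this goes with the RefSeq rows is not given in the sources used here. Strand was not stated to be used, so reads of overlapping genes cannot be told apart. The unmapped entry, a median of 22.2% of reads, and an empty entry were kept out of library sizes.

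Rows were named through RefSeq accessions (54.2% of 32041 rows), and 1 row per symbol, that with the highest mean count, was used. Rows with a total of at least 44 counts, the 30th percentile, were kept (22431). Groups were compared over the whole table in edgeR 4.0.16 under R 4.3.3 (TMM, robust quasi-likelihood F test) and Benjamini-Hochberg adjustment. CPM are counts per 1000000 on TMM-scaled library sizes, and log2 CPM used a prior count of 2. Standard errors are the log2 change divided by the root of F. The script was tested on simulated data. p-values measure the spread between individual rats. CPM and reads are not scaled for transcript length, which was not used here, so they do not rank levels between genes.

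The members, the lists and the alternatives were chosen with earlier results of these data known. Named were all members, of each pathway list the genes of highest CPM and up to 3 with the smallest unadjusted p under 0.05, abundant and defining markers, and the 5 symbols most like Blnk. Csf1r and Itgam are in the receptor and microglia lists, and Cd22 is in the inhibitory and B cell lists. Lcp2, Plcg1, Lyn, Itgam, Clec7a, Spi1, Cd3e, Cd247, Cd4, Pf4, Tpsab1, Gfap and Aqp4 were named after their values were seen. Alternatives were DESeq2 1.42.0, limma 3.58.1 with voom, other scalings, estimation, filters and row choices, the ribosomal RNA share as a covariate, and leaving out rats. Some genes of the lists that this rule names are not reported here. Figures were drawn with matplotlib 3.10.9.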

Additional observations from a re-analysis of the deposited data

Results flagged for a closer look

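In 54 groups of 5 rats (levels of the 10 genes, their ratios to the microglia markers and the marker sums), 5 held a single outlying rat by Dixon's gap-to-range ratio at the 95% level, where about 2.70 such groups would come by chance. Sham replicate 3 had 6.79 CPM of Syk, above the other sham rats at 5.37 to 5.69 CPM, and its Ptpn6 was 1.50% of the microglia marker sum against 1.13% to 1.22% in the others. TBI replicate 3 had 11.3 CPM of Fcer1g, below the other injured rats at 16.4 to 17.5 CPM. In TBI replicate 5 Inpp5d was 2.05% of the marker sum, below the others at 2.30% to 2.39%. Sham replicate 4, one of the rats richest in ribosomal RNA, had a T and NK cell marker sum of 7.07 CPM, below the others at 8.87 to 9.56 CPM. The cause of these values was not tested.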

How the results depend on the processing

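Rows past an adjusted p of 0.05 numbered 0 in the main fit, 3 with DESeq2, 92 with total count scaling, 20 with total count scaling outside ribosomal RNA, and 0 to 12 across fits leaving out 1 rat (5 without sham replicate 3 and 12 without TBI replicate 3). The number of members higher in TBI at an unadjusted p under 0.05 was 6, and it was 1 without sham replicates 4 and 5, 1 with the ribosomal RNA covariate and 2 to 8 across fits leaving out 1 rat. The median log2 change of the members was 0.38, stayed above 0 in each alternative, and was 0.21 with the covariate, 0.26 without sham replicates 4 and 5, and 0.84 with total count scaling, which counts ribosomal RNA as library size and moved the median of all rows to 0.50. Pathway genes at an unadjusted p under 0.05 numbered 9. They numbered 24 with total count scaling, 18 with that scaling outside ribosomal RNA, 2 without sham replicates 4 and 5, 1 with the covariate, and 4 to 14 across fits leaving out 1 rat (4 without sham replicate 2 or TBI replicate 2, 5 without sham replicate 4 or TBI replicate 1 or 5, 14 without sham replicate 3). All rows at that threshold, in either direction, numbered 1769 in the main fit. Total count scaling gave 3788 such rows, and that scaling outside ribosomal RNA gave 2931. There were 1256 without sham replicates 4 and 5 and 991 with the covariate. Fits leaving out 1 rat gave 1162 to 2566. The log2 change of Plcg2, 0.18, reversed to -0.052 without sham replicates 4 and 5 and to -0.11 with the covariate. Other members kept their direction in each alternative. Why these values moved was not tested. No paired analysis was possible because the labels give the groups no shared replicate numbers. Btk had only 4 to 54 reads per library, and how much of its error comes from depth was not tested.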
